A study of Mus musculus with 18 samples.

Results

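Translation initiation factors, the kinases that phosphorylate eIF2 alpha and the subunits that direct its phosphatase were followed in cultured mouse neurons exposed to homocysteic acid (HCA) and adaptaquin. Genes were taken by name: every symbol of the array beginning with Eif and a digit from 1 to 6, apart from Eif4ebp1, together with Ppp1r15a and Ppp1r15b. This gave 48 of 16593 symbols. Of these, 39 were among the 8922 genes measured, where measured means that some probe had a detection p-value below 0.01 on 2 or more of the 17 arrays used. Detection was counted over all 17 arrays, so a gene could pass on the arrays of 1 group. Each of the 39 was in fact detected on all 17 arrays, except Eif3h, detected on 16. The 9 that did not pass were Eif1ax, Eif2ak4, Eif2s3y, Eif3e, Eif3m, Eif4e1b, Eif4ebp3, Eif5a2 and Eif5b, each detected on 0 arrays.

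RNA was measured on 18 Illumina bead arrays in 6 groups of 3, all of them neurons in culture. The groups were HCA without adaptaquin, untreated neurons, HCA with 0.1 µM adaptaquin, 0.1 µM adaptaquin alone, HCA with 1 µM adaptaquin, and 1 µM adaptaquin alone. HCA is a glutamate analogue that lowers cystine uptake and thereby glutathione, and adaptaquin inhibits the prolyl hydroxylases that sense oxygen. The sources used here give no strain, age of culture, HCA dose or exposure time. HCA replicate 3 is marked as an outlier in its title and was left out, so that HCA alone had 2 arrays. Nothing in the labels shows that replicates came from separate cultures, and each p-value therefore reflects only the spread among these samples, possibly a technical one.

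Initiation in eukaryotes begins when eIF2, bound to GTP, brings the initiator tRNA to the small ribosomal subunit, and eIF2B recharges eIF2 for the next round. Kinases, each answering to a different stress, phosphorylate the alpha subunit of eIF2. This slows eIF2B and general initiation but favours translation of a few mRNAs such as that of the transcription factor ATF4. The phosphatase PP1, guided by PPP1R15A (GADD34) or PPP1R15B (CReP), removes the phosphate. The arrays measure mRNA, not phosphorylation or protein.

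The 4 genes with a difference between HCA and no HCA averaged over the adaptaquin doses, Eif2s2, Ppp1r15a, Eif2ak1 and Eif2ak2, are shown by the letters around their start sites. Each run covers the 250 bases before and the 30 bases after the RefSeq gene start in GRCm38.p6, on the strand of the gene. Capitals mark matches to 4 motifs searched on both strands: the cAMP response element TGACGTCA, the amino acid response element core TGATGNAA, the E-box CACGTG, and the core of the interferon-stimulated response element, which is GAAA followed after any 2 bases by GAAA. Eif2s2 lies at chr2:154892877-154893156 on the minus strand, Ppp1r15a at chr7:45526239-45526518 on the minus strand, Eif2ak1 at chr5:143817542-143817821 on the plus strand and Eif2ak2 at chr17:78882543-78882822 on the minus strand.
Eif2s2: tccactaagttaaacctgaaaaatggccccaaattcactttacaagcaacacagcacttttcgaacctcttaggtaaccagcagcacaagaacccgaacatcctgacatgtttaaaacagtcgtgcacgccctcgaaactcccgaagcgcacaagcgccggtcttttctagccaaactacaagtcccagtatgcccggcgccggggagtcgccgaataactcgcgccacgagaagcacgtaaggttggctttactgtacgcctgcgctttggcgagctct
Ppp1r15a: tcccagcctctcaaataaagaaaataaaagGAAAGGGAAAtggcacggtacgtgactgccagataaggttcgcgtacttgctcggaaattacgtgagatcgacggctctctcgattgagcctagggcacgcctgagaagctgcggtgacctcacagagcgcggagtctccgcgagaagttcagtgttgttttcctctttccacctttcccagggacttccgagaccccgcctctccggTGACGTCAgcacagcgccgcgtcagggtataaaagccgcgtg
Eif2ak1: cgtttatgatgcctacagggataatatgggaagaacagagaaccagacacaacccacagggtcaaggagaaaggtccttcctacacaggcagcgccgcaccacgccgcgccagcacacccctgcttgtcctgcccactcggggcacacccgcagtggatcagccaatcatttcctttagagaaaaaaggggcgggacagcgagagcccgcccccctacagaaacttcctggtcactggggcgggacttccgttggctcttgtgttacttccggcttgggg
Eif2ak2: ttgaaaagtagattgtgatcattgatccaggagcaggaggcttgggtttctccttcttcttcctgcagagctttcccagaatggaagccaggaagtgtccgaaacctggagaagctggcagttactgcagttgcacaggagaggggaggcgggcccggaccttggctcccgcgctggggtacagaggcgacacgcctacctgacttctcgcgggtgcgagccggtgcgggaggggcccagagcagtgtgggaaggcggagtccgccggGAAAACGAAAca
The Ppp1r15a window held TGACGTCA, with its first base at position -12 from the start, and GAAAGGGAAA farther upstream. The Eif2ak2 window held GAAAACGAAA just inside the transcript, with its first base at position 19. The Eif2s2 and Eif2ak1 windows held none of the 4 motifs.

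Of the 39 measured genes, 32 had a window. TGACGTCA was in 1 of the 32, that of Ppp1r15a, against 1.99% of 27025 genes and 3.67% of the 7280 measured genes with a window. The interferon element core was in 4, those of Eif2ak2, Eif2s3x, Eif3a and Ppp1r15a, against 3.8% of all genes and 3.27% of measured genes. CACGTG, the letters bound by factors of the MYC and USF type, was in 8 of the 32, against 7.71% of all genes and 11.28% of measured genes. These were Eif1b, Eif3a, Eif3f, Eif3k, Eif4a1, Eif4e, Eif4h and Eif5a, which encode scanning, eIF3, eIF4 and eIF5A proteins. TGATGNAA was in 1, that of Eif2s3x, against 4.32% and 2.72%.

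Upper quartiles of intensity were 333 to 563 on the 17 arrays, with a detected share of 42.8% to 47.6%, and the array titled an outlier had 242 and 40.9%. Markers of neurons were measured for 10 of 14 genes, with Snap25, Nefl, Neurod6 and Gad2 not passing. Markers also passed for 7 of 8 astrocyte, 6 of 8 microglia, 3 of 8 oligodendrocyte, 2 of 8 vessel or fibroblast and 5 of 8 progenitor genes. The mean log2 intensity of the progenitor markers lay between 9.07 and 9.46 on HCA arrays and between 9.47 and 9.87 on arrays without HCA. The oligodendrocyte markers lay between 8.10 and 8.45 with HCA and between 8.30 and 8.80 without. Their mean was lower with HCA at 0, 0.1 and 1 µM (8.30 against 8.65, 8.32 against 8.57 and 8.26 against 8.45), without overlap at 0 and 0.1 µM. The neuron markers lay between 10.65 and 10.87 with HCA and between 10.50 and 10.79 without. Their mean was higher with HCA at each dose (10.76 against 10.71, 10.82 against 10.71 and 10.74 against 10.64). The 2 vessel or fibroblast markers lay between 6.11 and 7.28 with HCA and between 5.70 and 6.85 without, and their mean was higher with HCA at each dose (6.87 against 6.56, 6.79 against 6.44 and 6.48 against 6.16). Astrocyte markers lay between 8.29 and 8.58 with HCA and between 8.16 and 8.62 without, and microglia markers between 6.47 and 6.94 with HCA and between 6.15 and 6.80 without. The part of these shifts in the differences given here was not tested. In RNA from whole cultures, fewer cells of a type and less RNA per cell cannot be told apart.

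The first question was how the initiation genes differed between neurons with and without HCA. Averaged over the 3 adaptaquin doses, Eif2s2 and Ppp1r15a rose and the kinase genes Eif2ak1 and Eif2ak2 fell. Their products are a subunit of eIF2, a phosphatase subunit and 2 of the kinases. Eif2s1, the gene of the alpha subunit itself, was not among the 48 symbols and so was not analysed here. The other 35 did not pass an adjusted p of 0.05 with limma. The background is wide, since 11.2% of all measured genes passed in the same comparison, 475 up (5.32%) and 524 down (5.87%), or 253 up and 166 down when arrays were scaled to a common median. The median log2 difference of the 39 was -0.01 and that of all genes -0.01. The count of 4 in 39 lies near that background, so it is no result about initiation genes as a group.

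**Figure D1:**
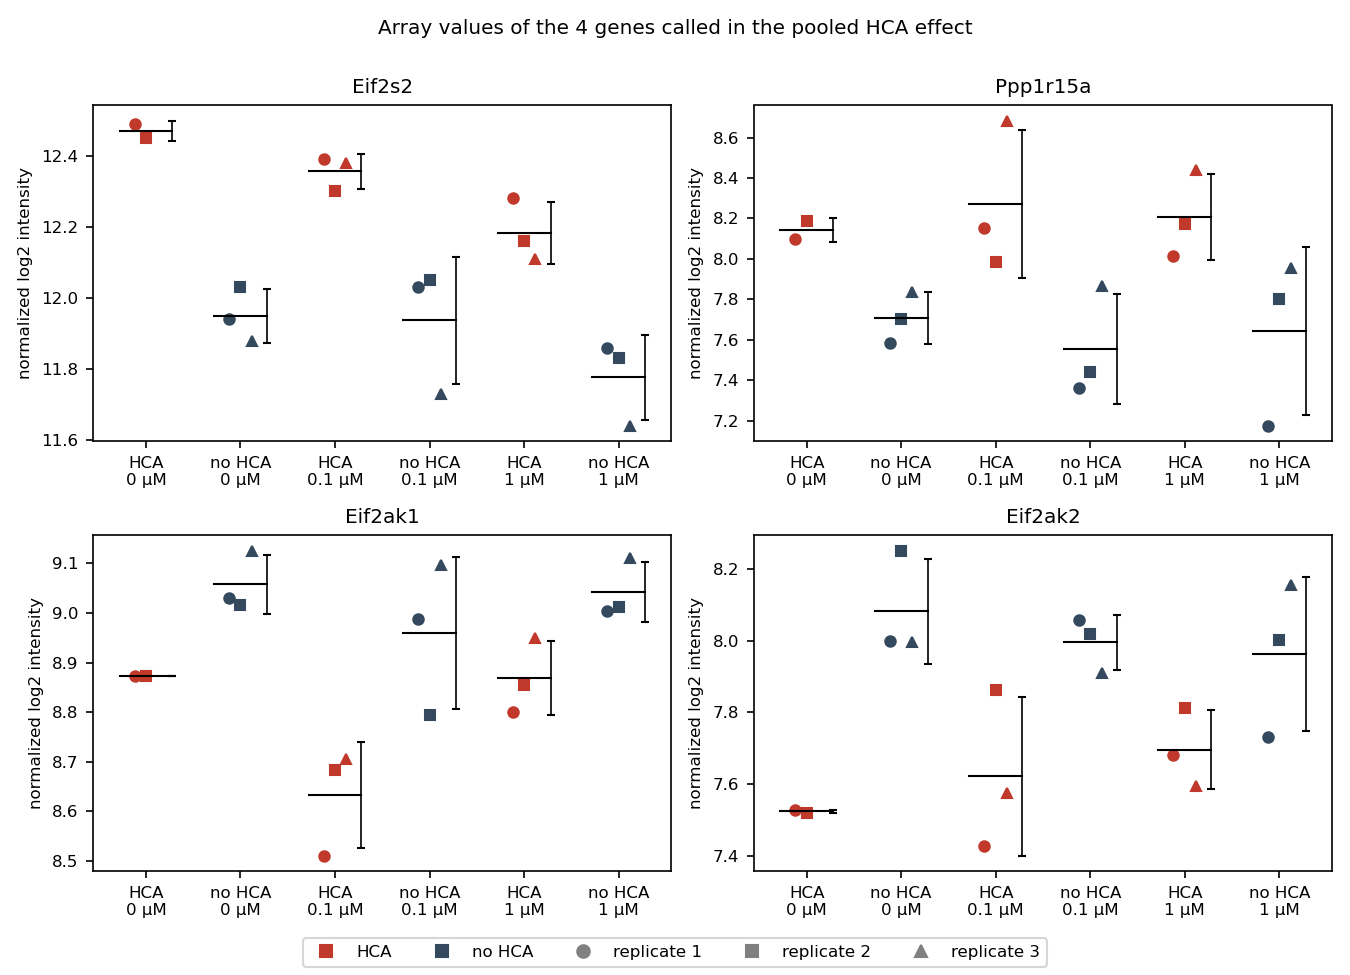
Normalized log2 intensity (vertical axes) of Eif2s2, Ppp1r15a, Eif2ak1 and Eif2ak2 on each of the 17 arrays, by group (horizontal axes, HCA or no HCA at each adaptaquin dose in µM). Points are arrays, red with HCA and dark without, shapes are replicate numbers, and lines and bars are group means and SD; at each dose the HCA arrays of Eif2s2 and Ppp1r15a lie above those without HCA and the HCA arrays of Eif2ak1 lie below, while 1 of those of Eif2ak2 lies within the range without HCA at 1 µM.

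Eif2s2 encodes the beta subunit of eIF2, which binds the initiator tRNA complex and contacts eIF5 and eIF2B. Without adaptaquin its normalized log2 intensity was 12.49 and 12.45 on the 2 HCA arrays and 11.94, 12.03 and 11.88 on untreated arrays. With 0.1 µM adaptaquin it was 12.39, 12.30 and 12.38 with HCA and 12.03, 12.05 and 11.73 without. At 1 µM it was 12.28, 12.16 and 12.11 with HCA and 11.86, 11.83 and 11.64 without. At each dose every HCA array lay above every array without HCA. The mean was 12.34 with HCA and 11.89 without, a log2 difference of 0.45 ± 0.06 (SE) or 1.37-fold (95% interval 0.32 to 0.58, limma adjusted p = 0.000246). A further Eif2s2 probe gave 0.64 ± 0.09 (limma adjusted p = 0.000285 over 12991 probes). All 8 pairs of arrays with the same replicate number were higher with HCA.

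Eif2s3x, the gene on the X chromosome for the gamma subunit that holds GTP, had a difference of 0.05 ± 0.07 (95% interval -0.10 to 0.21, limma adjusted p = 0.717). Its values overlapped between HCA and no HCA at 0.1 and 1 µM. The Y-linked copy Eif2s3y was not detected.

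Among the kinases, Eif2ak1 encodes HRI, which responds to lack of haem and to mitochondrial stress. It was at 8.87 and 8.87 on the HCA arrays and at 9.03, 9.02 and 9.13 on untreated arrays. In 0.1 µM adaptaquin it was at 8.51, 8.68 and 8.71 with HCA and at 8.99, 8.79 and 9.10 without. At 1 µM it was at 8.801, 8.855 and 8.949 with HCA and at 9.003, 9.011 and 9.111 without. The groups did not overlap at any dose, though the gap was narrow at 0.1 and 1 µM. Eif2ak1 averaged 8.79 with HCA and 9.02 without, a log2 difference of -0.23 ± 0.05 or 0.853-fold (95% interval -0.35 to -0.11, limma adjusted p = 0.0148). With arrays scaled to a common median the difference was -0.20 and did not pass (limma adjusted p = 0.153).

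Eif2ak2 encodes PKR, which binds double-stranded RNA and is induced by interferon. It was at 7.53 and 7.52 on the HCA arrays and at 8.0, 8.252 and 7.996 on untreated arrays. With 0.1 µM adaptaquin it was at 7.43, 7.86 and 7.57 with HCA and at 8.06, 8.02 and 7.91 without. At 1 µM it was at 7.68, 7.81 and 7.60 with HCA and at 7.731, 8.002 and 8.156 without. The groups did not overlap without adaptaquin and at 0.1 µM but did at 1 µM, where HCA replicate 2 lay above replicate 1 without HCA. The mean was 7.61 with HCA and 8.01 without, a log2 difference of -0.40 ± 0.08 or 0.758-fold (95% interval -0.57 to -0.23, limma adjusted p = 0.00393). The difference was -0.25 when background was not corrected and passed there too (limma adjusted p = 0.00315).

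Eif2ak3 encodes PERK, the kinase of endoplasmic reticulum stress. It was at 7.51 and 7.22 with HCA and at 7.51, 7.35 and 7.53 in untreated neurons. In 0.1 µM adaptaquin it was at 7.99, 7.81 and 7.52 with HCA and at 7.66, 7.02 and 7.59 without, and at 1 µM at 7.94, 7.38 and 7.77 with HCA and at 7.50, 7.01 and 7.37 without. The groups overlapped at each dose. The mean difference was 0.22 ± 0.12 and did not pass (95% interval -0.03 to 0.47, limma adjusted p = 0.273). Eif2ak4, which encodes GCN2, the kinase activated by uncharged tRNA and studied with ATF4 in amino acid shortage, was not detected on any array, so its mRNA could not be compared.

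Ppp1r15a encodes GADD34, the stress-induced subunit that brings PP1 to eIF2 alpha and is itself a target of the ATF4 pathway. It was at 8.10 and 8.19 with HCA and at 7.58, 7.70 and 7.84 in untreated neurons. With 0.1 µM adaptaquin it was at 8.15, 7.98 and 8.68 with HCA and at 7.36, 7.44 and 7.87 without. At 1 µM it was at 8.02, 8.17 and 8.44 with HCA and at 7.17, 7.80 and 7.96 without. Every HCA array lay above every array without HCA at the same dose, and number 3 arrays were the highest of their group wherever there were 3. The mean was 8.21 with HCA and 7.64 without, a log2 difference of 0.57 ± 0.13 or 1.49-fold (95% interval 0.30 to 0.85, limma adjusted p = 0.00989). The difference was 0.37 when background was not corrected and passed there too (limma adjusted p = 0.00521).

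Ppp1r15b encodes CReP, the subunit that serves unstressed cells. It was at 6.67 and 6.92 with HCA and at 6.31, 6.01 and 6.14 in untreated neurons, with no overlap. In 0.1 µM adaptaquin it was at 6.94, 6.40 and 7.06 with HCA and at 6.60, 6.41 and 6.84 without, and at 1 µM at 6.97, 6.39 and 6.49 with HCA and at 6.44, 6.27 and 6.70 without, with overlap at both doses. Its mean difference was 0.32 ± 0.12 (95% interval 0.08 to 0.57) and did not pass (limma adjusted p = 0.0916), but passed with the replicate number as a block (limma adjusted p = 0.0238). The difference was 0.14 when background was not corrected and did not pass there (limma adjusted p = 0.112).

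The 3 genes without overlap at any of the doses were therefore Eif2s2 and Ppp1r15a, higher with HCA, and Eif2ak1, lower with HCA. Over all measured genes, 2.49% were higher and 2.30% lower in this way. With the array titled an outlier included, the same count of 4 genes passed, and the differences were 0.42 for Eif2s2, 0.64 for Ppp1r15a, -0.21 for Eif2ak1 and -0.37 for Eif2ak2. On that array Ppp1r15a was at 8.75, above the other HCA arrays without adaptaquin, and Eif2ak2 at 7.84, below every untreated array. Eif2s2, at 12.16, was also above every untreated array, while Eif2ak1, at 9.01, was just below the lowest untreated array, 9.02.

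**Figure D2:**
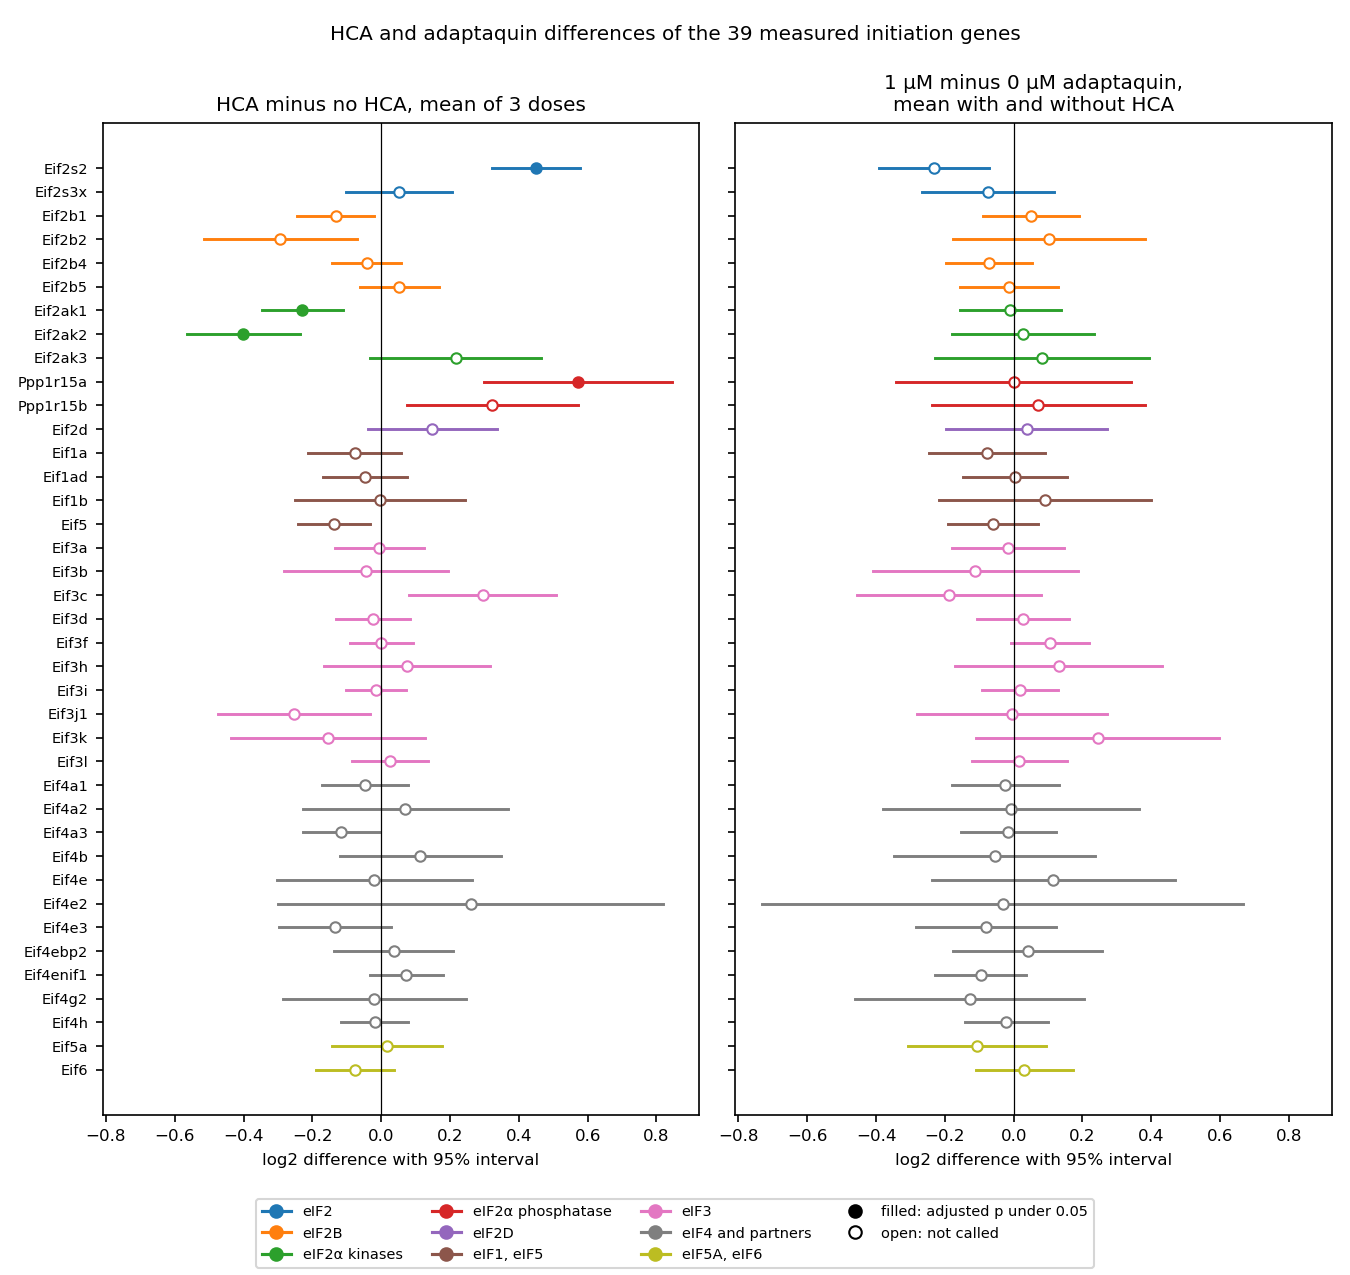
Log2 difference (horizontal axes) with its 95% interval for each of the 39 measured initiation genes (vertical axis, ordered and coloured by role). The left panel gives HCA minus no HCA averaged over 3 adaptaquin doses and the right panel 1 µM minus 0 µM adaptaquin averaged with and without HCA; filled points passed an adjusted p of 0.05, which 4 genes did on the left and 0 on the right.

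Arrays with the same replicate number deviated together, so a fit with the number as a block was also made. In it 10 of the 39 genes passed, 5 higher and 5 lower with HCA, against 20.6% of all genes. It added Ppp1r15b, Eif2d and Eif4e2 among the higher and Eif2b1, Eif2b2 and Eif5 among the lower, and Eif2s2 (limma adjusted p = 5.3e-05), Ppp1r15a (0.000118), Eif2ak1 (0.00412) and Eif2ak2 (0.00111) passed in both fits. When the arrays of 1 number were all left out, Eif2s2 passed each time, with differences of 0.45, 0.51 and 0.39. Ppp1r15a did not pass without number 1 (0.51, limma adjusted p = 0.113) or number 2 (0.62, 0.198). Eif2ak2 did not pass without number 1 (-0.41, limma adjusted p = 0.0541) or number 2 (-0.42, 0.100), and Eif2ak1 passed in none of these fits, with differences of -0.20, -0.27 and -0.21 (limma adjusted p = 0.221, 0.164 and 0.0875).

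Of the subunits of eIF2B, the exchange factor that restores GTP to eIF2, 4 were measured, with Eif2b3 not among the 48 symbols. Eif2b2, which encodes its beta subunit, was at 8.94 and 9.07 with HCA and at 9.15, 9.53 and 9.49 in untreated neurons. At 0.1 µM it was at 8.87, 9.10 and 9.35 with HCA and at 9.08, 9.33 and 9.39 without, and at 1 µM at 8.88, 9.13 and 9.40 with HCA and at 9.15, 9.67 and 9.59 without. The groups overlapped at 0.1 and 1 µM, yet in all 8 pairs of the same number the HCA array was the lower, by 0.04 to 0.54. Its mean difference was -0.29 ± 0.10 (95% interval -0.52 to -0.07), which did not pass without the block (limma adjusted p = 0.0899) and did with it (limma adjusted p = 0.00333). Eif2b1, for the alpha subunit, had -0.13 ± 0.05 (limma adjusted p = 0.126, and 0.0433 with the block). Its further probe had -0.09 ± 0.07 and did not pass (limma adjusted p = 0.485, and 0.422 with the block). Eif2b4, for the delta subunit, had -0.04 ± 0.05, and Eif2b5, for the catalytic epsilon subunit, had 0.05 ± 0.05 (95% intervals -0.14 to 0.06 and -0.06 to 0.17). Eif2d, which encodes a factor that can deliver the initiator tRNA without eIF2, had 0.15 ± 0.09 (limma adjusted p = 0.329, and 0.0175 with the block) and was higher with HCA in 7 of 8 pairs. Its further probe had 0.19 ± 0.20 and did not pass (limma adjusted p = 0.642, and 0.604 with the block).

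**Figure D3:**
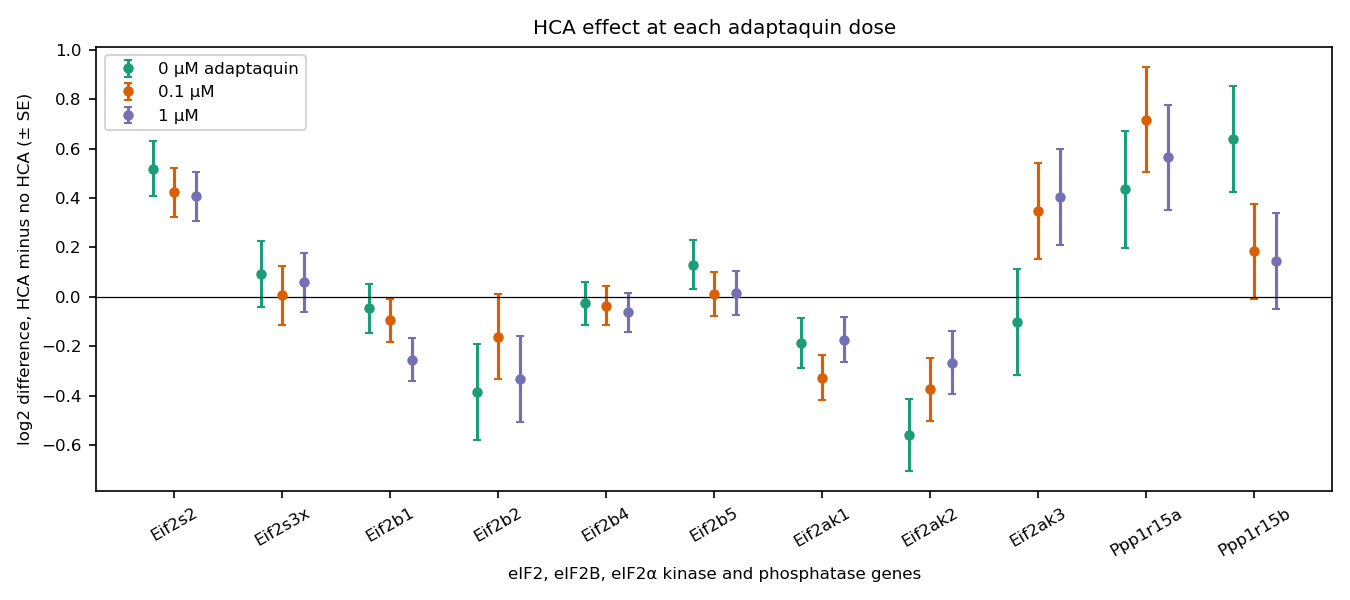
Log2 difference between HCA and no HCA (vertical axis, points with SE) at 0, 0.1 and 1 µM adaptaquin for the 11 measured genes of eIF2, eIF2B, the eIF2 alpha kinases and the phosphatase subunits (horizontal axis). Eif2s2 and Ppp1r15a are above 0 and Eif2ak1, Eif2ak2 and Eif2b2 below 0 at each dose, while Eif2ak3 is below 0 without adaptaquin and above 0 at the other doses.

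Eif1a, Eif1ad, Eif1b and Eif5 were grouped by name under start codon scanning. Their values with HCA minus without ran between -0.14 for Eif5 and 0.00 for Eif1b, and 0 of 4 passed. Eif5 encodes the protein that triggers GTP hydrolysis by eIF2 at the start codon. It was at 13.16 and 13.20 with HCA and at 13.28, 13.40 and 13.38 in untreated neurons. At 0.1 µM it was at 13.18, 13.27 and 13.07 with HCA and at 13.27, 13.44 and 13.33 without, and at 1 µM at 13.15, 13.23 and 13.15 with HCA and at 13.29, 13.26 and 13.16 without. The HCA array was the lower in all 8 pairs of the same number, by 0.01 to 0.26, and the groups overlapped at 0.1 and 1 µM. The difference was -0.14 ± 0.05 (limma adjusted p = 0.0901, and 0.0241 with the block). The other Eif5 probes had -0.16 and -0.02 and did not pass (limma adjusted p = 0.331 and 0.928, and 0.0508 and 0.599 with the block). Eif1b, a relative of the scanning factor eIF1, had a 95% interval of -0.25 to 0.24.

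Of 10 measured subunits of eIF3, the scaffold that holds the small ribosomal subunit and the mRNA, 0 passed in either fit. Eif3c, a core subunit, had the highest value. It was at 10.32 and 10.47 with HCA and at 9.73, 9.69 and 10.08 in untreated neurons, with no overlap, but at 1 µM its arrays ran between 9.72 and 10.35 with HCA and between 9.61 and 10.08 without. Its mean difference was 0.29 ± 0.10 (limma adjusted p = 0.075, and 0.0531 with the block). Eif3j1, for a loosely bound subunit at the decoding site, had the lowest value, -0.25 ± 0.10 (limma adjusted p = 0.138, and 0.087 with the block). It was -0.14 when background was not corrected and -0.11 without all arrays numbered 2 (limma adjusted p = 0.123 and 0.629).

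Among 11 measured genes with eIF4 names, most of whose products work at or near the mRNA cap, 0 passed without the block. Their values ran between -0.13 for Eif4e3, a relative of the cap-binding protein, and 0.26 for Eif4e2. Eif4e, the gene of the cap-binding protein itself, had -0.02 ± 0.13 (95% interval -0.30 to 0.26). Eif4e2 encodes 4EHP, a cap-binding protein that represses translation. It was at 9.84 and 10.93 with HCA and at 9.77, 10.98 and 9.73 in untreated neurons. At 0.1 µM it was at 9.92, 10.91 and 10.10 with HCA and at 9.93, 10.79 and 9.91 without, and at 1 µM at 9.93, 11.07 and 10.41 with HCA and at 9.50, 10.61 and 9.92 without. The number 2 array was the highest of each of the 6 groups, and HCA and no HCA overlapped at each dose. The difference was 0.26 ± 0.26 (limma adjusted p = 0.605, and 0.0332 with the block). The other Eif4e2 probes gave 0.04 and 0.14 and did not pass (limma adjusted p = 0.766 and 0.235, and 0.7 and 0.154 with the block).

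**Figure D4:**
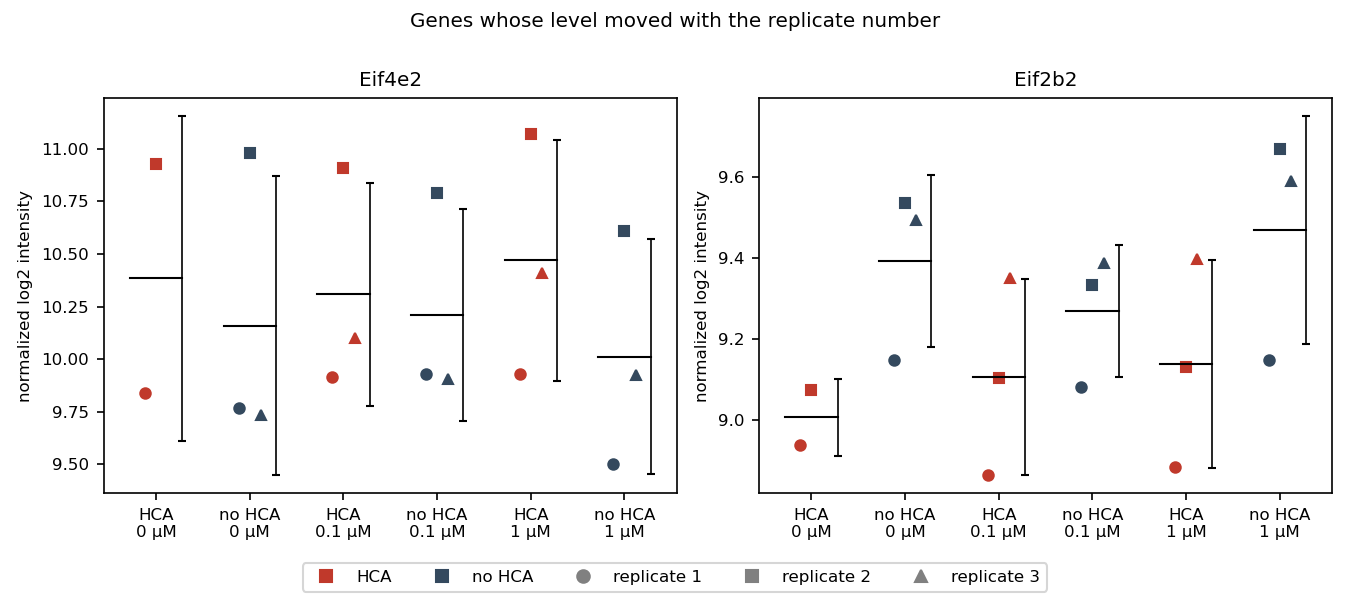
Normalized log2 intensity (vertical axes) of Eif4e2 and Eif2b2 on the 17 arrays by group (horizontal axes, HCA or no HCA at each adaptaquin dose in µM). Points are arrays, red with HCA and dark without, shapes are replicate numbers, and lines and bars are means and SD; Eif4e2 lay between 10.61 and 11.07 on number 2 arrays and at or below 10.41 on the others, and Eif2b2 averaged 9.01, 9.31 and 9.44 over arrays numbered 1, 2 and 3.

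Of genes of later steps, Eif5a, whose product helps the ribosome join difficult peptide bonds, had 0.02 ± 0.07 and Eif6, whose product keeps the large subunit from joining early, had -0.08 ± 0.05. Neither passed (limma adjusted p = 0.919 and 0.429).

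At single doses fewer genes passed, in the background too. Without adaptaquin, Eif2s2 alone of the 39 passed, with a rise with HCA of 0.52 ± 0.11 (limma adjusted p = 0.0466), against 0.751% of all genes called. At 0.1 µM it rose by 0.42 ± 0.10 (limma adjusted p = 0.0471), against 1.91%. At 1 µM 0 of 39 passed with limma, against 1.19% of all genes, and 4 had an unadjusted p under 0.05, against 11.5% of all genes. There Eif2s2 had 0.41 ± 0.10 (limma adjusted p = 0.0742). The calls at 0 and 0.1 µM lie close to the threshold. Leaving out 1 of the 17 arrays ended the call in 14 of 17 cases without adaptaquin and in 16 of 17 at 0.1 µM, with differences of 0.48 to 0.56 and 0.32 to 0.48. The arrays whose removal left the call were 0.1 µM alone replicates 2 and 3 and 1 µM alone replicate 3 in the comparison without adaptaquin, and 1 µM alone replicate 3 in that at 0.1 µM. Including the array titled an outlier ended both (0.42, limma adjusted p = 0.0904, and 0.42, 0.0751).

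With the number as a block, 3 genes passed without adaptaquin, 3 at 0.1 µM and 4 at 1 µM, against 2.82%, 5.97% and 4.51% of all genes. Eif2s2 was among them at each dose (limma adjusted p = 0.0135, 0.0074 and 0.0118). Ppp1r15a passed at 0.1 µM (0.72 ± 0.21, limma adjusted p = 0.127, and 0.00498 with the block) and at 1 µM (0.57 ± 0.21, 0.289, and 0.0238 with the block). Eif2ak2 passed without adaptaquin (-0.56 ± 0.14, limma adjusted p = 0.101, and 0.0304 with the block) and Eif2ak1 at 0.1 µM (-0.33 ± 0.09, 0.101, and 0.0185 with the block). The others were Eif2d without adaptaquin and Eif4e2 and Eif2b2 at 1 µM.

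Without adaptaquin 10 of the 39 genes had all HCA arrays above all untreated arrays and 6 had them below, against 15.0% and 16.8% of all genes. At 0.1 µM 3 lay above and 3 below, against 7.97% and 7.99%, and at 1 µM again 3 and 3, against 7.43% and 7.43%. Besides Eif2s2, Ppp1r15a and Eif2ak1, these were Eif4ebp2, Eif2ak2 and Eif4a3 at 0.1 µM, and Eif4enif1, Eif2b1 and Eif3f at 1 µM. Of these, Eif4ebp2, Eif4a3, Eif4enif1 and Eif3f were named after their values were seen. The shares at 0.1 and 1 µM are near the background.

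The second question was whether adaptaquin changed these genes. With limma, 0 of 39 passed at 1 µM against 0 µM without HCA, with HCA, or averaged over both, and 0 passed at 0.1 µM averaged over both. Of all genes, 0.146%, 0%, 0.101% and 0% were called in these 4 comparisons. The fit with the block also called 0 of 39, against 0.235%, 0.0112%, 0.224% and 0% of all genes. An unadjusted p under 0.05 was met by 1, 1, 1 and 4 of the 39, or 2.56%, 2.56%, 2.56% and 10.3%. Of all genes, 2.22%, 2.73%, 3.52% and 1.86% met it. The share of the 39 at 0.1 µM thus lay above that of all genes, though 0 passed after adjustment. The median log2 difference of the 39 was -0.01 in each of the 4 comparisons.

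Eif2s2 had the smallest p of the 39 at 1 µM averaged over both. It was at 12.28, 12.16 and 12.11 on arrays with HCA and 1 µM adaptaquin and at 12.49 and 12.45 with HCA alone. Without HCA it was at 11.86, 11.83 and 11.64 at 1 µM and at 11.94, 12.03 and 11.88 in untreated neurons. All arrays at 1 µM lay below all arrays at 0 µM, with HCA and without it, as was true in this direction of 0.381% of all genes. The difference was -0.23 ± 0.07 (95% interval -0.39 to -0.07), with an unadjusted p of 0.00739 and a limma adjusted p of 1 (0.390 with the block). At 0.1 µM it was -0.06 ± 0.07 (95% interval -0.22 to 0.10).

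Ppp1r15a had a difference of 0.00 at 1 µM (95% interval -0.34 to 0.34), Eif2ak1 of -0.01 (-0.16 to 0.14) and Eif2ak2 of 0.03 (-0.18 to 0.23). In each of these 3 genes a change as large as its averaged HCA difference lies outside the interval. The values for Eif2ak3 and Ppp1r15b were 0.08 ± 0.15 and 0.07 ± 0.14.

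The third question was whether HCA acted differently at 1 µM adaptaquin than without it. The test of that difference called 0 of 39 genes with limma and 0 in the fit with the block, against 0% of all genes. An unadjusted p under 0.05 was met by 0 of 39 without the block and by 2 with it. Of all 8922 genes, 154 and 333 met it. Estimates ran between -0.49 ± 0.29 for Ppp1r15b and 0.55 ± 0.33 for Eif4e, which lies outside the rule for naming genes and was named after its value was seen. Eif2s2 had -0.11 ± 0.15 (95% interval -0.43 to 0.21), so a loss of much of its HCA difference of 0.52 at 1 µM was within the error. Eif2ak3, at -0.10 ± 0.22 without adaptaquin and 0.40 ± 0.19 at 1 µM, had a difference of 0.51 ± 0.29 (limma adjusted p = 1).

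Other genes of the pathway were followed from lists. Of 20 listed genes of the integrated stress response downstream and around eIF2 alpha, 17 were measured. With HCA averaged over the doses 11 rose and 1 fell, against 5.32% up and 5.87% down of all genes. The median log2 difference of the 17 was 0.63, against -0.01 over all genes. The list was chosen with earlier results of these data known. The gene of ATF4 was at a mean of 8.08 with HCA and 6.90 without, a difference of 1.19 ± 0.18 (limma adjusted p = 0.000627). Chac1, a glutathione-degrading enzyme, rose by 2.33 ± 0.10, Sesn2, an inhibitor of mTORC1 signalling, by 1.47 ± 0.09, and Asns, asparagine synthetase, by 1.26 ± 0.08. By dose, Sesn2 rose with HCA by 1.96, 1.74 and 0.70 at 0, 0.1 and 1 µM adaptaquin. Its HCA difference at 1 µM minus that at 0 µM was -1.26 ± 0.22 and did not pass (limma adjusted p = 0.436). Eif4ebp1, the inhibitor of eIF4E that is a known ATF4 target and was set apart from the initiation factors here, rose by 1.85 ± 0.09 (limma adjusted p = 1.28e-08). Its relative Eif4ebp2 had 0.04 ± 0.08 (95% interval -0.14 to 0.21). The gene that fell was Dnajc3, which encodes an inhibitor of PERK and PKR (-0.26 ± 0.06, limma adjusted p = 0.0129).

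Of 23 listed regulators of initiation outside the Eif names, 15 were measured, and besides Eif4ebp1, which is in both lists, 1 passed. It was Mknk1, a kinase of eIF4E, which fell by 0.31 ± 0.09 on the log2 scale (limma adjusted p = 0.0411). The median of the 15 was 0.00. Paip1, a partner of the poly(A)-binding protein, had 0.25 ± 0.09 (limma adjusted p = 0.0891) and Denr, a relative of eIF2D, had -0.21 ± 0.09 (limma adjusted p = 0.159). With the block 1 rose and 3 fell. Of all genes, 11.2% passed without the block and 20.6% with it, so these counts lie near the background.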

How the data were processed

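A table deposited by the authors holds the intensity of each probe on 18 arrays before normalization. It also holds the deposited detection p-value. The authors also gave log2 values in a separate table. Those deposited log2 values equalled a quantile normalization of the log2 intensities to within 5e-09, and they served as an alternative. The sources used here name no scanner software. Per the labels, column-purified total RNA was labelled with biotin by an Ambion kit.

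The neqc function (limma 3.58.1, R 4.3.3) subtracted background estimated from the detection p-values, added an offset of 16, quantile-normalized all 18 arrays and took log2. The platform table gave a symbol to 23978 of 25697 probes, and 12991 probes passed the detection filter. The probe with the highest mean stood for each of 2386 genes with several. Differences are between log2 values.

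A model with 1 coefficient for each of 6 groups was fitted over all 8922 genes with limma (11 residual and 3.22 prior degrees of freedom). The 9 contrasts were tested two-sided with Benjamini-Hochberg adjustment over all genes and a threshold of 0.05. The average HCA difference weights the 3 doses equally. The genes and lists were chosen with earlier results of these data known. Genes named with values are those called, those of the eIF2 group and the highest and lowest of each other role. Up to 4 genes of a pathway list are named, with Atf4 and those that fell added after their values were seen.

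Replicate numbers paired the arrays: deviations from the group means correlated at 0.238 to 0.626 in 40 pairs of equal number. In 80 pairs of different number they correlated at -0.461 to 0.0614. Deviations sum to 0 within a group, so the second range depends on the first and is no separate evidence of pairing. The 2 HCA arrays mirror each other, at 0.387 and -0.387 with untreated replicate 1. The fit with the number as a block is printed where it changed a call, and also for some genes and probes where it did not. The number of arrays limits the precision. The model fit was tested on simulated data in which each array varied independently. That simulation held no deviation shared by replicate number, so it could not test the fit under such pairing. Promoter windows came from RefSeq (GRCm38.p6), matched by symbol or gene ID for 32 of 39 genes.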

Additional observations from a re-analysis of the deposited data

How the results depend on the processing

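Alternatives were no background correction, scaling to a common median, the authors' deposited log2 values, no detection filter, detection on all 17 arrays, the array titled an outlier included, the mean of a gene's probes, the replicate number as a block and each array left out. Leaving out all arrays of 1 replicate number was added after seeing the data. No slide positions were found in the files, so no fit with the slide was run.

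The count of 4 genes for HCA averaged over the doses became 10 with the replicate block, 1 without all arrays numbered 1 and 1 without all arrays numbered 2, and ran from 4 to 6 when 1 array was left out. Without adaptaquin, the count of 1 became 3 with the replicate block, and 0 with median scaling, with no detection filter, with the titled outlier included and without all arrays of any 1 number, and was 0 to 1 with 1 array left out. At 0.1 µM the count of 1 became 3 with the replicate block and 0 under the same other settings, and was 0 to 1 with 1 array left out. At 1 µM the count of 0 became 4 with the replicate block and 1 with no background correction, with the authors' deposited table and with the mean of probes, and was 0 to 1 with 1 array left out. The counts for adaptaquin and for the interaction were 0 in all settings run. The cause of these changes was not tested.

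The averaged HCA differences of Eif2s2, Ppp1r15a, Eif2ak2 and Eif2ak1 kept their sign in all settings run. With 1 array left out they ran from 0.42 to 0.47 for Eif2s2, 0.49 to 0.62 for Ppp1r15a, -0.44 to -0.37 for Eif2ak2 and -0.26 to -0.21 for Eif2ak1, and all 4 passed each time. Over all genes the 999 calls became 1842 with the replicate block, 419 with median scaling, 469, 146 and 539 without all arrays numbered 1, 2 and 3, and 683 to 1080 with 1 array left out. At single doses the calls over all genes ran between 7 and 252 (67 as reported) without adaptaquin, 22 and 533 (170) at 0.1 µM and 15 and 402 (106) at 1 µM. For 1 µM adaptaquin they ran between 0 and 21 (13) without HCA and 0 and 20 (9) averaged over both. Where HCA alone was left with 1 array, that array was assumed to vary like the other groups. Signal limits what can be said of the 9 genes that were at background on every array, Eif2ak4 among them. For Eif3a, other probes were detected on 0 arrays while the probe used was detected on all 17, with a mean of 10.4. Whether the 9 genes had low mRNA or probes that do not report it was not tested.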

Other observations

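Of 14 listed genes of elongation and termination, 13 were measured, and with HCA averaged over the doses 1 rose and 0 fell, with a median log2 difference of -0.02. With the block 2 rose and 1 fell. These counts lie near the shares of all genes called, 11.2% without the block and 20.6% with it. The gene that rose was Hbs1l, which encodes a GTPase that frees stalled ribosomes (0.21 ± 0.05, limma adjusted p = 0.0239). Eef1a2, the elongation factor 1A form of neurons and muscle, had 0.23 ± 0.07 (limma adjusted p = 0.0501, and 0.0208 with the block). Eef2k, the kinase that slows elongation, had -0.17 ± 0.09, and Gspt2, a release factor, had -0.12 ± 0.11. Of the 17 measured stress response genes, 1 passed at 1 µM adaptaquin without HCA, Sesn2, which rose by 0.82 ± 0.15 (limma adjusted p = 0.0443). With HCA, 0 of the 17 passed at 1 µM, 5 values were higher and 12 lower, and the median log2 difference was -0.135. For 6 of the 17, all arrays with HCA and 1 µM lay below the 2 arrays of HCA alone, and for 0 above. Over all 8922 genes, 676 lay below and 808 above in this way.

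The brightest Eif4e2 probe averaged 10.88 on arrays numbered 2, against 9.81 on number 1 and 10.02 on number 3. The other Eif4e2 probes did not show this gap, with means of 9.29 and 7.39 on number 2 arrays and 9.34 and 7.26 on the others.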
